A study of Mus musculus with 10 samples.

Results

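Cytosolic ribosomal proteins were examined in hematopoietic stem cells (HSCs) of aged mice with and without the aryl hydrocarbon receptor (AHR), a ligand-activated transcription factor. Of 22180 genes that could each be read by a probe set with a single symbol, 63 were taken as members because their symbol is Rpl or Rps followed by digits and at most 1 letter, or Rplp0 to Rplp2, with the ribosomal S6 kinases and the genes named as pseudogenes by their ending left out. Among them, 40 carry a large subunit name and 23 a small subunit name, and 56 encode canonical subunits. The other 7 are paralogs or copies, namely Rpl3l, Rpl10l, Rpl39l, Rps27l, Rpl32l, Rpl6l and Rps4l, and RefSeq annotates Rpl6l as a pseudogene and Rps4l as a transcribed pseudogene. The naming rule itself uses no measured value.

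The study profiled SLAM+ HSCs from 5 AHR-KO and 5 WT mice, all of strain C57BL/6J and 18 months old, on Mouse Gene 2.0 ST arrays (Affymetrix), and each mouse gave 1 array. SLAM+ HSCs were sorted from bone marrow depleted of lineage-positive cells, and the small amount of RNA was amplified and labeled with biotin. AHR-KO mice lack the receptor globally, so that marrow stroma and every other tissue lack it too. The methods list these breeders as AHRtm3.1Bra/J, and the part of Ahr missing from the allele is not given in the sources used here.

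A cytosolic ribosome is built from a small subunit, which reads the mRNA, and a large subunit, which joins amino acids. Each subunit is made of ribosomal RNA and many different proteins, most of which are present in 1 copy per ribosome, so that cells are known to make these proteins in matched amounts. Their mRNAs are among the most abundant of growing cells, and many begin with a C followed by a run of pyrimidines, the terminal oligopyrimidine motif, through which the mTOR pathway controls their translation. Quiescent HSCs are known for a low rate of protein synthesis, and inherited loss of 1 copy of any of several ribosomal protein genes causes Diamond-Blackfan anemia in humans. Translation itself is not read by an mRNA array.

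The start of the transcript is where this control acts, and the windows below show it for members that recur in the results. Each line gives 15 bases before and 15 bases from a RefSeq transcription start (GRCm38.p6), 5′ to 3′ on the strand of the gene, and capitals mark an unbroken run of C and T that begins with C at the start base. Rps6, Rpl28, Rpl38, Rps18, Rps27, Rplp2 and Rpl32l have such a run, and Rps19, Rpl13, Rps15 and Rpl10l do not.
Rps6: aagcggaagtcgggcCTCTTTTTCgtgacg
Rpl28: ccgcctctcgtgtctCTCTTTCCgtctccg
Rpl38: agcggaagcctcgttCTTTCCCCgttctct
Rps18: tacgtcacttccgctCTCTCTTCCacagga
Rps27: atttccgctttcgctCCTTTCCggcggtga
Rplp2: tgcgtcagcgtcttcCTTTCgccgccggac
Rpl32l: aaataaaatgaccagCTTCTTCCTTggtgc
Rps19: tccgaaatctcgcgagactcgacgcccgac
Rpl13: ttccctttcgcctgattttgattggcgttt
Rps15: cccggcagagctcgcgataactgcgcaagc
Rpl10l: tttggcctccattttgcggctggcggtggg

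These windows lie at chr4:86857353-86857382 on the minus strand for Rps6, chr7:4792950-4792979 on the plus strand for Rpl28, chr11:114668565-114668594 on the plus strand for Rpl38, chr17:33955651-33955680 on the minus strand for Rps18 and chr3:90213634-90213663 on the minus strand for Rps27. Those of Rplp2 (chr7:141447636-141447665), Rpl32l (chr10:20208424-20208453), Rps19 (chr7:24884577-24884606), Rpl13 (chr8:123102335-123102364) and Rps15 (chr10:80292416-80292445) are on the plus strand, and that of Rpl10l (chr12:66284387-66284416) is on the minus strand. Each spans the first transcribed bases, which belong to the first exon, and the bases just upstream of the gene.

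Of the 63 members, 48 matched a start in the RefSeq promoter table. A C at the start base followed by at least 4 pyrimidines was found in 11 of the 48 (22.9%), against 3.01% of the 27025 genes of that table. RefSeq lists only a few starts per gene, and a run around a listed start is not counted unless it begins there, as in Rpl7a, whose start base is a T within a longer run of pyrimidines. In the 250 bases before to 50 bases after the start, searched on both strands, CCGGAAG, an ETS family sequence, was held by 43.8% of the members and 9.93% of all genes. GCGTG, the core of the sequence that AHR binds with its partner ARNT, was held by 64.6% of the members and 35.2% of all genes. The GC box GGGCGG was held by 50% and 38.2%, the E-box CACGTG, which shares the letters CGTG with GCGTG, by 8.33% and 8.09%, and TATAAA by 10.4% and 15.7%. Base composition was not matched, and a match describes these letters only.

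Before the members are compared, the arrays themselves need 1 description. All 10 arrays share their median signal (24.65) and maximum, so a change of most genes in the same direction could not be seen. The first principal component of all genes (30.6% of the variance) separated 4 arrays (AHR-KO replicates 1 and 2, with WT replicates 1 and 5) from the remaining 6, and this grouping comes from the data and not from the labels. HSC identity markers were measured in 23 of 25 genes listed, 1 of them at background level, and of the markers of other cells those at background level were 0 of 9 erythroid, 0 of 6 megakaryocyte and platelet, 2 of 14 neutrophil, 2 of 10 mast cell and basophil, 2 of 17 monocyte, macrophage and dendritic cell, 2 of 8 stromal, 4 of 9 T and NK cell and 7 of 9 B cell genes. The targeted gene Ahr had log2 values of 6.13, 5.17, 5.76, 6.26 and 6.52 in AHR-KO replicates 1 to 5 and of 6.78, 5.81, 5.74, 5.66 and 4.70 in WT replicates 1 to 5. The groups overlapped (log2 difference 0.23, standard error 0.34, limma adjusted p = 0.998), with a sign that turned without WT replicate 5 (-0.03), and since the probe set may read exons that the allele keeps, Ahr does not check the labels. All directions given rest on the labels.

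AHR-KO and WT HSCs did not differ in their ribosomal protein mRNAs by any amount that passed a test over all genes. The median log2 fold change of the 63 members, AHR-KO minus WT, was -0.017, beside 0.004 for all genes, and 39 members lay within 0.1 of 0 on the log2 scale. Of the members, 23 were higher and 40 lower in AHR-KO, whereas 51.1% of all genes were higher. None of the 63 passed an adjusted p under 0.05 (limma with Benjamini-Hochberg adjustment, smallest adjusted p = 0.998), and neither did any of the 22180 genes. The study's methods name a change of 1.5-fold and a P limit of 0.05, and elsewhere an adjustment that they do not specify. Taken with the unadjusted p, these limits were reached by none of the 63 members and by 0.523% of all genes on the log2(signal + 16) scale, which understates changes of dim genes. With a pseudocount of 1 in place of 16, 3 dim members (Rpl32l, Rplp2 and Rps15) reached them, and 2 (Rpl32l and Rplp2) did with the methods' t-test on linear signals. At an unadjusted p under 0.05 alone there were 4 members (6.35%), 3 higher and 1 lower, against 3.74% of all genes. Nothing in the sources says more about the mice than 1 array each, so the p-values measure the spread between these 10 animals' arrays.

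How closely the data bound a difference is shown by the 95% intervals of the fit. For 52 of the 63 members (82.5%) the whole interval lay within 1.5-fold in either direction, as it did for 69.4% of all genes. All 40 members with a mean log2 level of 10 or more were inside, and the 11 that were not were dimmer than that. For each of those 11 a difference of more than 1.5-fold is not bounded by these data, and the widest intervals were those of Rps4l (-0.31 to 0.99), Rpl30 (-0.95 to 0.17), Rps27l (-0.73 to 0.34) and Rpl26 (-0.10 to 0.90). These counts hold on the log2(signal + 16) scale, which understates differences of dim members. Rpl32l, at background level, counted as inside (0.02 to 0.44), yet its log2 difference was 0.861 with a pseudocount of 1. Rps16 and Rpl3l, also at background level, counted as inside too, and for such dim members this does not bound the fold change.

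**Figure D1:**
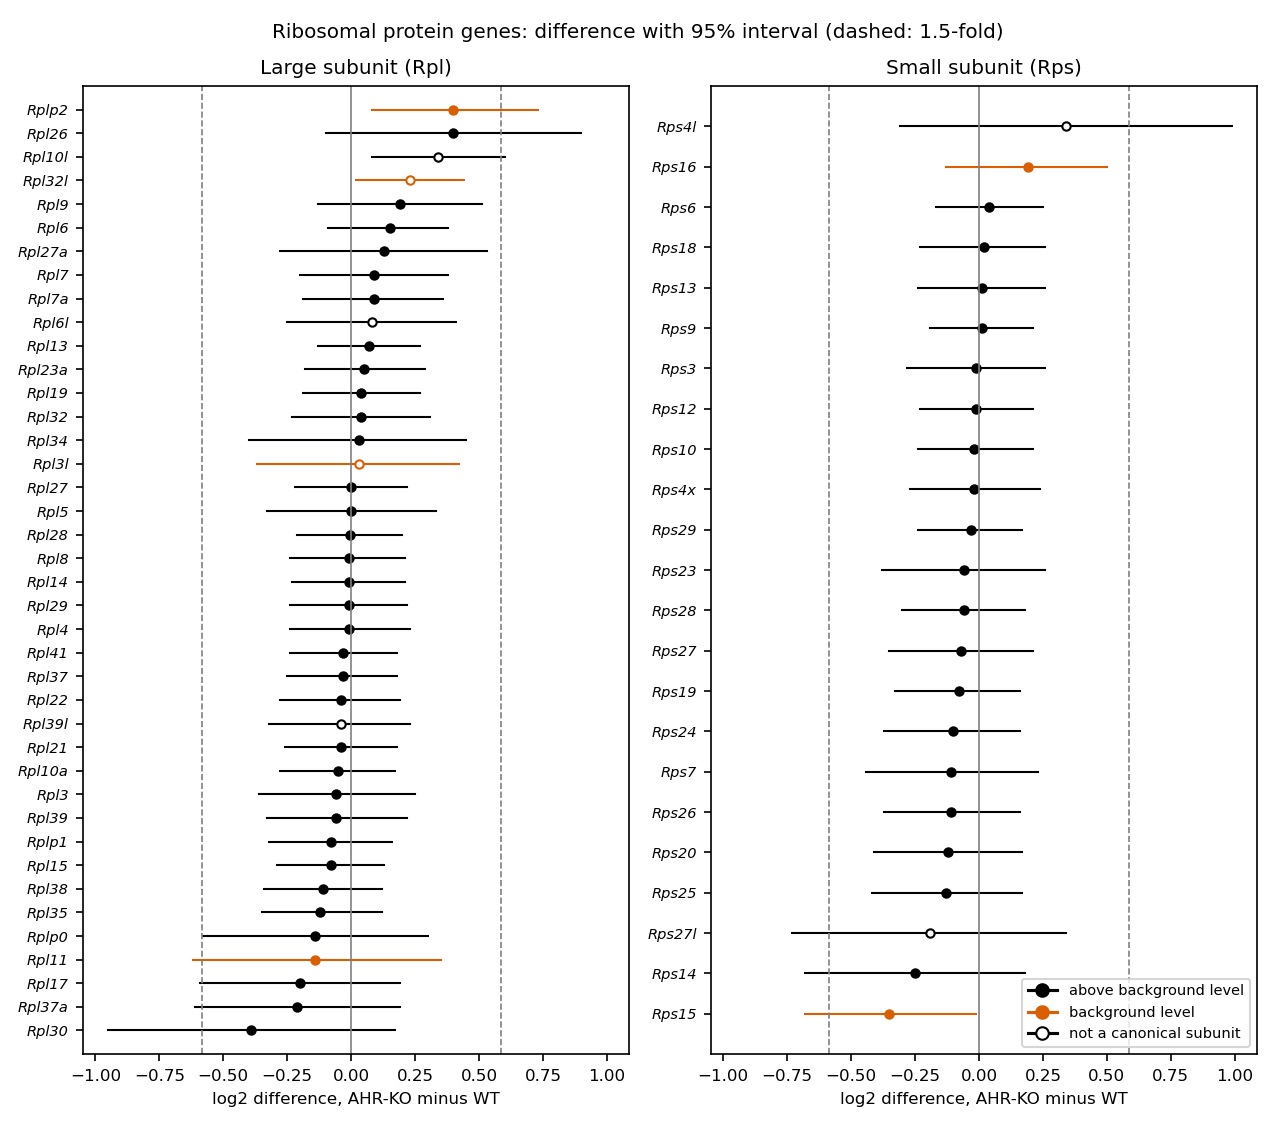
Log2 difference of AHR-KO minus WT (x axis) with its 95% interval from limma for each of the 63 members, sorted within the large and small subunits, with dashed lines at 1.5-fold. Most intervals cross 0 and stay inside the dashed lines, and those of Rplp2, Rpl10l, Rpl32l and Rps15 do not reach 0.

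Both subunits had medians near 0, and the difference between them was not tested. The 40 large subunit members had a median log2 fold change of -0.006, with 17 higher and 23 lower, and 3 of them passed an unadjusted p under 0.05 (beside 3.74% of all genes). For the 23 small subunit members the median was -0.062, with 6 higher and 17 lower, and 1 passed. Canonical subunits alone gave a median of -0.024 over 56 genes, of which 18 were higher. The 7 members that are not canonical subunits lay on the other side, with a median of 0.082 and 5 higher. As a comparison from outside the cytosol, mitochondrial ribosomal proteins had a median of -0.011 over 71 genes, with 34 higher, and 6 of them (8.45%) passed an unadjusted p under 0.05, 1 higher and 5 lower.

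Members at the highest levels varied little between arrays. Signals of different probe sets do not rank mRNA amounts, since each probe set binds with its own strength, but 34 of the 63 members were among the brightest 1% of genes. Of the 22 members with a mean log2 level between 11 and 12, the median SD between arrays of a group was 0.119, beside 0.152 for the 105 other genes of that range, and between 12 and 13 it was 0.102 for 10 members and 0.117 for 12 other genes. At lower levels this did not hold. The median SD of members and other genes was 0.183 and 0.179 between levels of 10 and 11, 0.303 and 0.262 between 8 and 10, 0.408 (3 members) and 0.318 between 6 and 8, and 0.231 and 0.234 below 6. Because the arrays share their quantiles, the topmost signals take a few fixed values. Rplp1, a stalk protein and the brightest member, had a signal of 8702 in AHR-KO replicate 4 and WT replicates 1 and 4, and of 6904 in AHR-KO replicates 2 and 5.

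**Figure D2:**
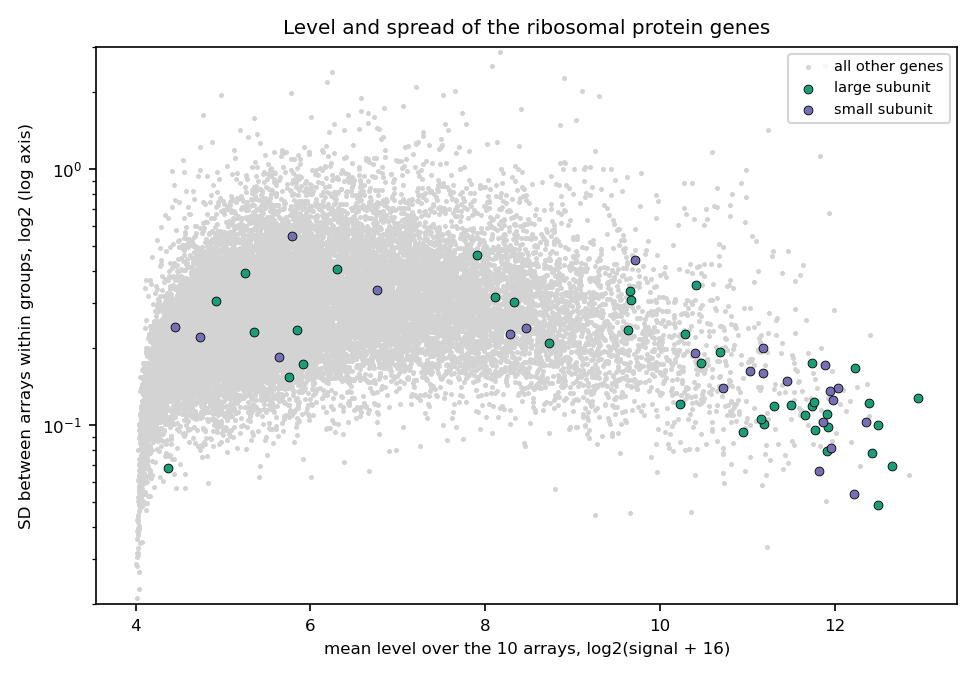
Pooled SD between arrays within the AHR-KO and WT groups (log axis) against the mean level over the 10 arrays, log2(signal + 16), with members in color and all other genes in grey. The members between levels of 11 and 13 lie toward the lower edge of the grey points, and those under 6 lie within them.

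The 5 members with the smallest SD over the 10 arrays were Rps9, Rpl13, Rps29, Rpl28 and Rpl41, at 0.051 to 0.075. Rps9, a small subunit protein, had log2 values of 12.20, 12.26, 12.33, 12.22 and 12.14 in AHR-KO replicates 1 to 5 and of 12.24, 12.23, 12.22, 12.21 and 12.17 in WT replicates 1 to 5. All WT arrays lay inside the AHR-KO range, and the log2 difference was 0.01 (95% interval -0.19 to 0.21). Rpl13, a large subunit protein, had 12.60, 12.57, 12.50, 12.49 and 12.49 in AHR-KO and 12.47, 12.47, 12.39, 12.50 and 12.49 in WT. Two-sided exact permutation of the arrays gave p = 0.0397 for its log2 difference of 0.07, where limma, which borrows spread from all genes, gave an unadjusted p = 0.475 and a 95% interval of -0.13 to 0.27. The groups overlapped, and the difference of a factor of 1.05 was the same in size for its dimmer probe set (0.07).
The log2 differences of the other 3 were -0.03 for Rps29, -0.0048 for Rpl28 and -0.03 for Rpl41, which encodes one of the smallest proteins known.

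At the other end, Rps4l, Rpl30, Rpl26, Rps27l and Rpl11 had the largest SDs, from 0.546 down to 0.379. Rpl30, a large subunit protein, read 8.10, 7.94, 7.75, 7.42 and 7.35 in AHR-KO replicates 1 to 5 and 8.15, 7.62, 7.94, 7.77 and 9.06 in WT replicates 1 to 5. WT replicate 5 stood above every other array, and otherwise the groups overlapped (log2 difference -0.39, standard error 0.26, limma unadjusted p = 0.151). Without that array the difference was -0.15, and with the 2 sets of arrays described above as a block the unadjusted p was 0.0443. Rps27l, a paralog of Rps27 that p53 induces, read 9.64, 10.56, 9.47, 9.40 and 9.01 in AHR-KO and 10.23, 9.71, 9.76, 9.65 and 9.71 in WT. The highest and the lowest arrays were both AHR-KO, and its log2 difference was -0.19 (95% interval -0.73 to 0.34). Single arrays moved this value, to -0.43 without AHR-KO replicate 2 (limma unadjusted p = 0.0239), to -0.09 without WT replicate 1 and to -0.04 without AHR-KO replicate 5, and it was -0.41 in the set of 6 arrays alone (limma unadjusted p = 0.0232) and 0.13 in the 4 arrays. Rps4l, the transcribed pseudogene, was at 7.16 in AHR-KO replicate 2 and between 5.14 and 6.10 in the other 9 arrays.

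The 4 members past an unadjusted p under 0.05 were all dim. Rplp2 encodes an acidic stalk protein, which with Rplp1 and Rplp0 recruits translation factors to the large subunit. Its log2 values were 5.58, 5.21, 5.36, 5.69 and 5.94 in AHR-KO replicates 1 to 5 and 5.02, 5.23, 5.40, 5.02 and 5.09 in WT replicates 1 to 5. AHR-KO replicates 1, 4 and 5 lay above all WT arrays and the other AHR-KO arrays overlapped them. This gave a 1.32-fold higher level in AHR-KO (log2 difference 0.40, standard error 0.15, limma unadjusted p = 0.0188, adjusted p = 0.998, two-sided exact permutation p = 0.0397). Its linear signals, 16.4 to 45.3, lie around the array median.

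Rpl10l is a paralog of the X-linked Rpl10 that takes over during male meiosis, when the X chromosome is silent. It read 6.09, 6.16, 5.87, 5.83 and 5.66 in AHR-KO and 5.50, 5.49, 5.61, 5.68 and 5.61 in WT, so that only AHR-KO replicate 5 fell within the range of the WT arrays. The level was 1.27-fold higher in AHR-KO (log2 difference 0.34, standard error 0.12, limma unadjusted p = 0.0136, adjusted p = 0.998, two-sided exact permutation p = 0.0159). AHR-KO replicates 1 and 2, which are in the set of 4 arrays, were the highest, and within the other 6 arrays the log2 difference was 0.19 (limma unadjusted p = 0.170). A probe set for Rpl10l may also bind mRNA of Rpl10, a near-identical copy, for which no probe set of its own was listed.

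Rpl32l, a retained copy of Rpl32, was the only member whose groups did not overlap, as was seen in 0.347% of all genes in this direction and 0.681% in either. It read 4.57, 4.45, 4.55, 4.45 and 4.40 in AHR-KO and 4.34, 4.29, 4.23, 4.18 and 4.23 in WT. Every AHR-KO array was above every WT array, by a log2 difference of 0.23 (standard error 0.09, limma unadjusted p = 0.0317, adjusted p = 0.998). The exact permutation p of 0.00794 is the smallest that 5 against 5 arrays allow. All 10 signals were between 2.2 and 7.8, below the array median of 24.65.

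Rps15, a protein of the head of the small subunit, was the only 1 of the 4 lower in AHR-KO. Its values were 4.0, 4.32, 4.26, 4.39 and 4.41 in AHR-KO and 4.95, 4.38, 4.70, 4.24 and 4.83 in WT. WT replicates 1, 3 and 5 were above all AHR-KO arrays, and WT replicates 2 and 4 lay among them. The log2 difference was -0.35 (standard error 0.15, limma unadjusted p = 0.0439, adjusted p = 0.998), and exact permutation gave p = 0.0952. Within the 6 arrays it shrank to -0.09 (limma unadjusted p = 0.561), and within the 4 arrays it was -0.73.

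**Figure D3:**
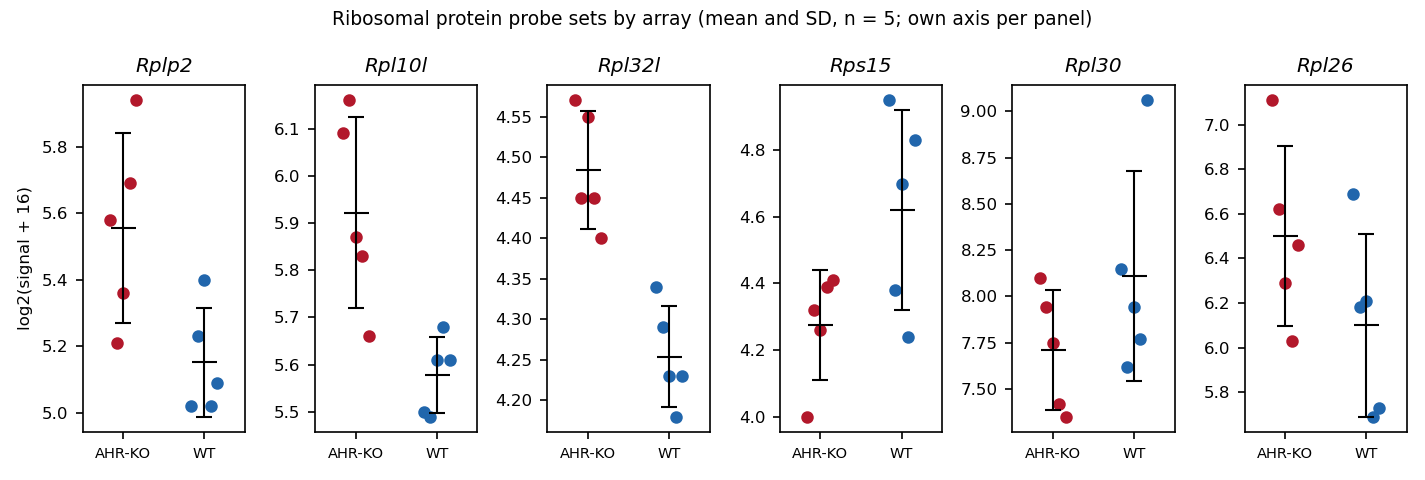
Values of 6 members by array, log2(signal + 16), each panel with an axis of its own, with the mean and SD of the 5 AHR-KO and 5 WT arrays. Rpl32l alone shows no overlap of the groups, and the WT mean of Rpl30 is raised by 1 array at 9.06.

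These genes sit near the level at which a signal cannot be told from background. Olfactory, vomeronasal, taste and keratin-associated genes, 1476 in all and not known for a role in HSCs, had a log2 level of up to 5.50 at their 95th percentile. At or below it were 6 members, Rplp2, Rps15, Rpl32l, Rpl11, Rps16 and Rpl3l, and these include 4 canonical subunits that every ribosome holds. Only Rpl10l of the 4 genes above lay higher. Without the 6, the remaining 57 members had a median log2 fold change of -0.017 and 1 passed an unadjusted p under 0.05. Rpl3l replaces Rpl3 in ribosomes of heart and skeletal muscle, and Rpl39l, at a level above background, is a paralog most active in testis.

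Members with known roles in blood showed small or unresolved differences. Rps19, the gene most often mutated in Diamond-Blackfan anemia in humans, had log2 values of 12.02, 12.08, 11.94, 11.92 and 11.60 in AHR-KO and 12.08, 11.97, 11.96, 11.98 and 11.97 in WT. AHR-KO replicate 5 was the lowest, the groups overlapped, and the log2 difference of -0.08 had a 95% interval of -0.33 to 0.16. Rps14, whose loss of 1 copy underlies the anemia of a human myelodysplastic syndrome, had 6.68, 7.07, 6.36, 6.82 and 6.28 in AHR-KO and 7.08, 6.42, 6.96, 6.69 and 7.32 in WT. The highest array was WT and the lowest AHR-KO, with wide overlap between them (log2 difference -0.25, 95% interval -0.68 to 0.18). Leaving out WT replicate 5 gave -0.145, leaving out AHR-KO replicate 5 gave -0.16, and leaving out WT replicate 2 gave -0.37.
Of 21 genes listed for Diamond-Blackfan anemia, 16 were measured here and none passed an unadjusted p under 0.05, beside 3.74% of all genes. Their median log2 fold change was -0.075, with 2 higher and 14 lower, where 51.1% of all genes were higher. Single values ran from -0.14 in Rpl11 to 0.40 in Rpl26, whose groups overlapped (95% interval -0.10 to 0.90). The mean deviation of these 16 genes ran from -0.17 to 0.09 in the AHR-KO arrays and from -0.04 to 0.14 in the WT arrays.

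Rpl5 and Rpl11 form a particle with a small ribosomal RNA, and when ribosome assembly stalls this particle binds MDM2 and so frees p53. Rpl5 read 5.59, 6.16, 5.76, 5.78 and 5.94 in AHR-KO and 5.97, 5.67, 5.95, 6.15 and 5.51 in WT, with the same mean of 5.85 in both groups. That mean is little above the background level of 5.50, and the 95% interval of the difference was -0.33 to 0.33. Rpl11 was at background level, with a log2 difference of -0.14 and a 95% interval of -0.62 to 0.35. Mdm2 itself differed by -0.17 (standard error 0.13, limma unadjusted p = 0.205), and the assembly factors that bring the particle into the large subunit, Rrs1 and Rpf2, differed by 0.33 (standard error 0.21) and -0.11 (standard error 0.23). None of the 5 passed an unadjusted p under 0.05, beside 3.74% of all genes.

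Rps6 is the small subunit protein that S6 kinases phosphorylate on growth signals. It read 12.03, 12.05, 11.90, 11.86 and 12.05 in AHR-KO and 11.97, 11.95, 11.92, 11.83 and 12.02 in WT. AHR-KO replicates 1, 2 and 5 lay slightly above all WT arrays and WT replicate 4 slightly below all AHR-KO arrays, with a log2 difference of 0.04 (95% interval -0.17 to 0.25). Rpl22, needed for T cell development in mice, differed by -0.04 (95% interval -0.28 to 0.19), and Rpl38, which shapes the axial skeleton of mouse embryos, by -0.11 (95% interval -0.34 to 0.12). For Rplp0, the stalk base, the log2 difference was -0.14 (95% interval -0.58 to 0.30), and for Rplp1 it was -0.08 (95% interval -0.32 to 0.16), so the other stalk proteins did not share the sign of Rplp2.

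Many ribosomal protein genes have processed copies elsewhere in the genome, and 23 members were read by more than 1 probe set. Their 39 dimmer probe sets had the sign of the brightest in 23 cases and the other sign in 16. Of the 39, 7 repeated the values of a brighter set on every array, as in Rps12, Rps19 and Rpl23a, so that only 32 carried values of their own. The repeats of Rps12 (0.05, against -0.01 for the brightest) add to the count of the other sign. Those of Rps19 and Rpl23a add to the same sign. Across the 10 arrays, the correlation of a dimmer with the brightest set ranged from -0.59 to 1.0, with a median of 0.46, and 6 dimmer sets were at background level. The largest gaps were in Rps18, where the brightest probe set differed by 0.02 and a set at a level of 5.72 by 0.41, and in Rpl27, where the values were 0.0011 and, at a level of 6.24, -0.38. Which copy of a gene each set binds was not tested.

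**Figure D4:**
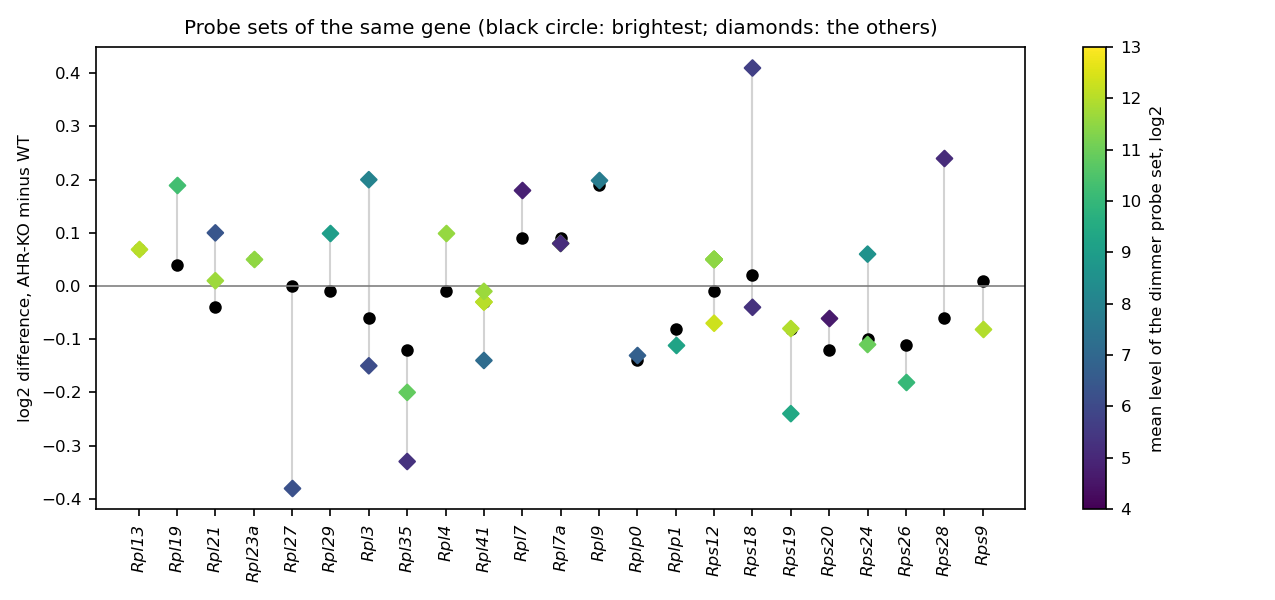
Log2 difference of AHR-KO minus WT for the 23 members with several probe sets, with the brightest as a black circle and the others as diamonds colored by their mean log2 level. The dark diamonds of Rps18, Rpl27 and Rps28 lie farthest from their circle.

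Another 23 canonical subunits were not members. For 12 of them, such as Rpl24 and Rps15a, the only probe sets listed carry several gene symbols, and no value is given. The study lists Rps15a as up-regulated in aged HSCs of both AHR-KO mice and mice lacking AHR only in hematopoietic cells. That list was filtered for putative AHR binding sites, and this was not examined here. A further 8 canonical subunits had no entry in the annotation used here, and 3 have symbols outside the rule. The log2 difference was -0.02 (standard error 0.10) for Rpsa, -0.03 (standard error 0.11) for Fau and 0.07 (standard error 0.13) for Rps3a1, all from bright probe sets. Rpl22l1 and Rpl7l1, paralogs of Rpl22 and Rpl7, differed by 0.10 (standard error 0.18) and 0.16 (standard error 0.16).

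Variation within the groups was larger than the difference between them. A score, the mean log2 deviation of the 63 members from their means over the 10 arrays, was 0.068, 0.089, -0.029, -0.019 and -0.135 in AHR-KO replicates 1 to 5 and 0.105, -0.047, -0.022, -0.057 and 0.047 in WT replicates 1 to 5. The highest array was WT, the lowest AHR-KO, and the group means of -0.005 ± 0.089 and 0.005 ± 0.069 (SD, n = 5) differed by less than either SD. The set of 4 arrays, both AHR-KO and both WT, had the 4 highest scores.

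Each of those 4 arrays was above each of the other 6 in 10 members, namely Rpl4, Rpl6l, Rpl7, Rpl27a, Rpl30, Rpl37a, Rps4x, Rps18, Rps24 and Rps28, and 0 members were lower in all 4. Among all genes 3.46% were higher and 3.80% lower in this way, and as the sets come from the same values, these shares are a description. Rps4x, the X-linked small subunit gene, read 11.57, 11.70, 11.59 and 11.51 in the 4 arrays and 11.23 to 11.45 in the 6. Rpl27a, a large subunit gene, read 8.43, 8.63, 8.44 and 8.28 in the 4 arrays and 7.78 to 8.04 in the 6. Both patterns ran through AHR-KO and WT alike.

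Some cell type markers moved with the same split. As the split was drawn from all genes, these markers among them, the ranges are a description. HSC identity scores of 23 genes lay between 0.22 and 0.53 in the set of 4 arrays and between -0.65 and -0.01 in the set of 6. Neutrophil scores of 14 genes lay between -1.58 and -0.29 in the former and between -0.04 and 1.98 in the latter. For 17 markers of monocytes, macrophages and dendritic cells the ranges were -0.86 to -0.13 and 0.03 to 0.62. Scores of 8 stromal genes were also lower in the 4 arrays (-0.95 to -0.14) than in the 6 (-0.04 to 0.79). Erythroid, megakaryocyte, mast cell, T and NK cell and B cell scores overlapped between the 2 sets, and the erythroid score, for example, was 1.03, 0.066, 0.847 and -0.87 in the 4 arrays and between -0.54 and 0.10 in the 6. Their part in the ribosomal protein score was not tested, and in bulk RNA fewer cells of a type and less RNA per cell cannot be told apart. Members followed each other loosely, with a median correlation over the arrays of 0.17 across 1953 pairs, beside 0.11 among mitochondrial ribosomal proteins, 0.14 among proteasome subunits, 0.67 among HSC identity genes and 0.80 among neutrophil genes, all from the same 10 arrays.

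**Figure D5:**
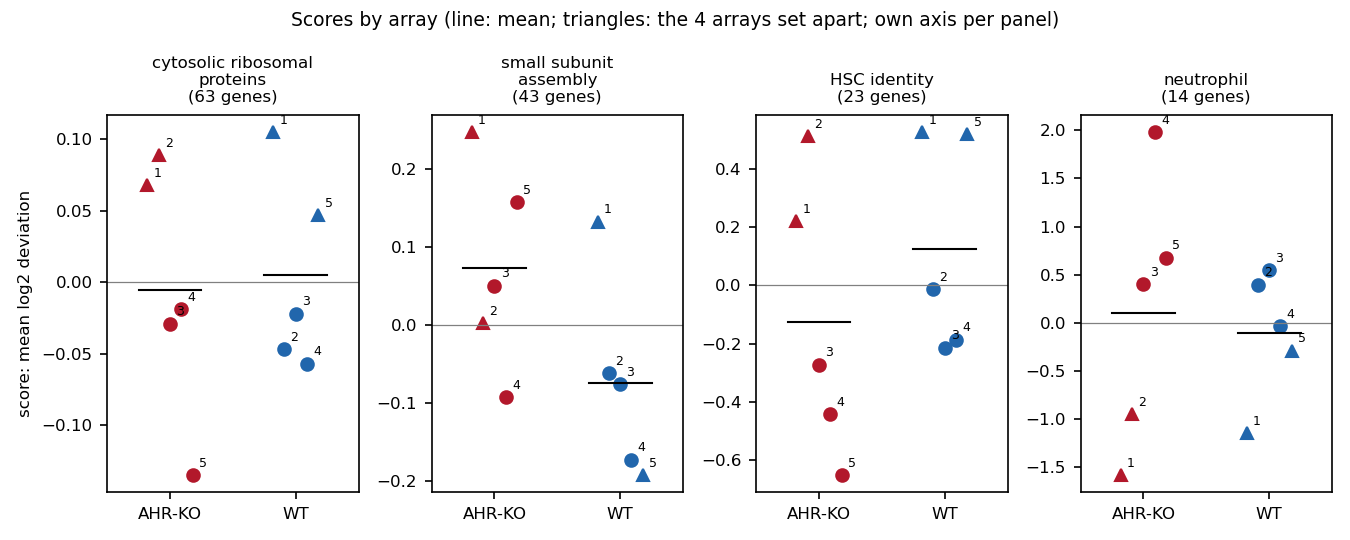
Scores by array, as mean log2 deviation, for the 63 members and for 3 other lists, each panel with an axis of its own, with replicate numbers beside the points, triangles for the 4 arrays set apart and lines at the group means. The triangles are the highest points of the ribosomal protein and HSC identity scores and the lowest of the neutrophil scores, in both groups.

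Genes that build and serve the ribosome were read beside its proteins. Of 163 genes in 7 lists, from rRNA transcription to translation factors, 14 (8.59%) passed an unadjusted p under 0.05, 12 higher and 2 lower in AHR-KO, beside 1.81% and 1.93% of all genes in these directions. None passed an adjusted p. The lists were chosen with earlier results of these data known. With 1 array left out the count of 14 ran from 8 to 16, and a pseudocount of 1 lowered it. Of small subunit assembly factors, 43 were measured, 34 were higher and 9 lower, and the median log2 fold change was 0.144. The score of this list was -0.09 to 0.25 in the AHR-KO arrays and -0.19 to 0.13 in the WT arrays, with the highest WT value in replicate 1, so the groups overlapped. The erythroid score was highest in AHR-KO replicate 1 (1.03) and WT replicate 1 (0.847) and lowest in WT replicates 4 (-0.54) and 5 (-0.87). AHR-KO replicate 5 ranked differently, with an assembly score of 0.158, above WT replicate 1 (0.133), and an erythroid score of -0.269. Of the erythroid genes, 8 of 9 were higher in AHR-KO (median 0.465), while 21 of 23 HSC identity genes were lower (median -0.233). None of either list passed an unadjusted p under 0.05 (limma). Of mast cell and basophil genes 9 of 10 were lower (median -0.42), and 3 passed, all lower and at the limits of the study's methods. Stromal genes were split 4 to 4, and 2 passed, both lower, with 1 at those limits. In the other marker lists none passed, beside 3.74% of all genes. The part of these markers in the assembly genes was not tested.

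Ltv1, which helps to export and finish the small subunit, had log2 values of 7.68, 7.92, 7.99, 7.72 and 8.15 in AHR-KO and 7.96, 7.45, 7.03, 6.95 and 7.13 in WT. WT replicate 1 lay among the AHR-KO arrays and the other WT arrays were below them all. At 1.5-fold higher in AHR-KO it was the only gene of the 163 at the limits of the study's methods (log2 difference 0.59, standard error 0.19, limma unadjusted p = 0.00926, adjusted p = 0.998, exact permutation p = 0.0397). It missed 1.5-fold when any of AHR-KO replicates 2, 3 and 5 or WT replicates 3, 4 and 5 was left out (0.50 to 0.58). Nol10, a nucleolar protein of the complex that processes small subunit rRNA, read 7.02, 6.99, 7.17, 6.72 and 7.14 in AHR-KO and 6.67, 6.64, 6.70, 6.33 and 6.35 in WT. Its groups did not overlap (log2 difference 0.47, standard error 0.13, limma unadjusted p = 0.00338, adjusted p = 0.998), as was seen in 0.347% of all genes in this direction. Mphosph10, of the same complex, read 7.37, 7.43, 7.54, 7.37 and 8.43 in AHR-KO and 7.23, 7.30, 7.21, 6.86 and 7.07 in WT. These groups did not overlap either (log2 difference 0.49, standard error 0.20, limma unadjusted p = 0.0285, adjusted p = 0.998), and AHR-KO replicate 5 stood far above the rest. Riok1 (0.40) and Heatr1 (0.35), named here after their values were seen, were the other 2 of the 5 small subunit factors past that p. The groups did not overlap in Riok1 and did in Heatr1.

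Among 46 large subunit assembly factors the median log2 fold change was 0.092, with 28 higher. Nip7, which acts in rRNA processing, was lower in AHR-KO (log2 difference -0.52, standard error 0.22, limma unadjusted p = 0.0362, exact permutation p = 0.0794), whereas the nucleolar GTPases Gnl3, known as nucleostemin, and Gtpbp4 were higher by 0.34 (standard error 0.12) and 0.32 (standard error 0.14), as was Gnl2 (0.32), named after its value was seen. In RNA polymerase I transcription 14 genes were split evenly, with 7 higher, and the polymerase subunit gene Znrd1 differed by -0.47 (standard error 0.19) and the promoter factor gene Taf1b by 0.27 (standard error 0.11). Of 32 translation factors 22 were higher with a median of 0.044, and only Eif3a, the scaffold of an initiation factor, passed at 0.25 (standard error 0.11, limma unadjusted p = 0.0482, adjusted p = 0.998). Each Eif3a value in AHR-KO, 9.58 to 9.88, was above each WT value, 9.26 to 9.55, as was seen in 0.347% of all genes. Of 14 genes of growth control, Tsc2, which restrains mTOR, was higher by 0.50 (standard error 0.21) and Larp4, which binds poly(A) tails, by 0.28 (standard error 0.12). Ribosomal protein chaperones were split 4 to 4 over 8 genes, and in the H/ACA particle that modifies rRNA 5 of 6 genes were higher with none past the threshold.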

How the data were processed

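For each of 10 arrays the authors deposited linear intensity values of 41345 probe sets, made with Affymetrix Expression Console according to the submitters' processing notes. IterPLIER with a background step and quantile normalization is described in the study's methods, but not tied to these arrays, so the algorithm is not settled here. The intensities share their quantiles in all 10 arrays, which hides a change common to most genes. Precision is limited by the 5 arrays per group.

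Signals were log2-transformed after 16 was added, so that fold changes of dim genes are understated. The platform annotation paired 23521 probe sets with 1 symbol, 1820 with several and 16004 with none, and for each of 22180 genes the brightest probe set on average was used, with no filter on level. Groups were compared with limma 3.58.1 in R 4.3.3 (lmFit and eBayes), adjusted over all genes by Benjamini-Hochberg, and single genes also by two-sided exact permutation (SciPy 1.17.1). Figures were drawn with matplotlib 3.10.9 in Python 3.11.15. The fit was tested on simulated data. The alternatives were other pseudocounts, renewed normalization, a filter on level, averaged probe sets, a replicate block, the methods' t-test, another variance model, array weights, blocks of array sets, other naming rules and leaving out each array.

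The members and lists were chosen with earlier results of these data known. Named genes were the members past an unadjusted p under 0.05, the 5 with the largest and the 5 with the smallest SD, members with known roles in blood, growth or the stalk, paralogs, and up to 3 genes past that p in each other list. Sequences come from RefSeq (GRCm38.p6). The annotation of the array names no genome build.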

Additional observations from a re-analysis of the deposited data

Results flagged for a closer look

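In 7 of 76 groups of 5 arrays, 1 array stood apart from the other 4 by a Dixon ratio above 0.71, which chance gives in about 1 in 20 groups. Among members these were Rps27l, with WT replicate 1 highest at 10.23, Rps4l, with AHR-KO replicate 2 highest at 7.16, and Rps19, with WT replicate 1 highest at 12.08. For Rpl28, a large subunit protein, WT replicate 3 was lowest at 12.52, and for Rpl41 WT replicate 4 was highest at 12.60. Of the assembly genes, AHR-KO replicate 5 was highest in Mphosph10, at 8.43, and in Gtpbp4, at 10.21, and without that array their log2 differences were 0.295 and 0.20 in place of 0.49 and 0.32.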

How the results depend on the processing

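The count of members at the limits of the study's methods was 0 and became 3 with a pseudocount of 1 (Rpl32l, Rplp2 and Rps15), 2 with the methods' t-test on linear signals (Rpl32l and Rplp2) and 1 in the 4 arrays alone (Rps15). At an unadjusted p under 0.05, 4 members became 2 with a pseudocount of 64 and 2 in the 6 or the 4 arrays alone. Among genes above the median level the count was 1 (Rpl10l), where the filter had removed Rpl32l, Rplp2 and Rps15. With 1 array left out this count ran from 2 to 5, and it was 2 without WT replicate 3 and without either AHR-KO replicate 1 or replicate 3. Of the members described singly, 3 that missed that p passed it in some of these fits: Rpl26 when AHR-KO replicate 4 (0.522) or WT replicate 1 (0.552) was left out, Rps27l without AHR-KO replicate 2 (-0.431) and in the 6 arrays (-0.413), and Rpl30 with the array sets as a block. The median log2 fold change ran from -0.036 to 0.013 and the score difference from -0.033 to 0.023. Ahr was 0.44 in the 6 arrays (unadjusted p = 0.0437 from limma), -0.092 in the 4 arrays and -0.031 to 0.49 with 1 array left out. Of the other ribosome genes, 14 past that p became 5 with a pseudocount of 1 and ran from 8 without WT replicate 5 to 16.

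Rplp2 missed that p without AHR-KO replicate 5 (0.31) and in the 4 arrays (0.34). Rps15 missed it in 12 fits, 6 of them with 1 array left out, and Rpl32l in 8, 4 of them so. Of the 10 fits with 1 array left out, Eif3a and Larp4 missed it in 6 and 7, Tsc2 in 6, Gtpbp4 and Nip7 in 5 each, Taf1b in 4, Znrd1 in 3, Mphosph10 in 1 and Ltv1, Nol10 and Gnl3 in 0. The cause was not tested. Same-numbered arrays of the 2 groups correlated at -0.198 to 0.352, without a consistent sign. Arrays with different numbers were not compared, so whether the numbers pair the arrays was not settled. With the replicate number as a block 3 members passed (Rpl10l, Rpl26 and Rplp2), and Rps15 (-0.35, unadjusted p = 0.0777 from limma) and Rpl32l (0.23, 0.0720) did not.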
